A study of Mus musculus with 20 samples.

Results

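A set of genes in cultured mouse nephron progenitor cells (NPCs) had a lower level in high than in low CHIR, and 48 of them kept a higher level in high CHIR when the cells had received a guide RNA against *Ctnnb1*, the gene for β-catenin. The 48 were taken from the 31130 genes of the table by their normalized counts, the read counts of a library divided by its size factor. The mean of the CTRL libraries in low CHIR had to be at least 100, the lowest CTRL low CHIR library at least 4 times the highest CTRL high CHIR library, and each β-catenin KO high CHIR library at least 2 times that same CTRL maximum. Of the 74 genes that met both CTRL conditions, 60 also met the β-catenin KO condition. From these, 12 were set aside by name, among them *Six2*, *Osr1*, *Meox2*, *Fgf1* and *Il33*, together with all symbols of the solute carrier, collagen and some further adhesion and guidance families. The genes were thus chosen by their normalized counts in the CTRL libraries and the β-catenin KO high CHIR libraries, and these values are given as a description without a test. The libraries of both adhesion knockouts, and of β-catenin KO in low CHIR, had no part in the choice.

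The series holds 20 libraries in 8 groups. Primary NPCs came from embryonic kidneys of mice with the genotype Cas9-eGFP (per the methods, E16.5 embryos from crosses of a ubiquitous CAG-driven *Rosa26* Cas9-EGFP strain with SWR/J), so the CTRL cells carry Cas9 too. All cells were transfected with guide RNA and mCherry mRNA, kept for a knockout period of 48 h, exposed to CHIR for 24 h, at 1.25 µM (low CHIR) or at 5 µM (high CHIR), and sorted for mCherry. CTRL cells received guides against GFP, β-catenin KO cells against *Ctnnb1*, α-catenin KO cells against *Ctnna1*, and QCKO cells against *Cdh2*, *Cdh3*, *Cdh4* and *Cdh11* together. CTRL and β-catenin KO have 3 libraries in each CHIR condition, and α-catenin KO (replicates 1 and 3) and QCKO (replicates 2 and 3) have 2. The groups share their culture dates, which the replicate numbers name, and each library is a pool of transfected cells rather than a clone.

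CHIR99021 (CHIR) inhibits GSK3, the kinase that marks β-catenin for destruction, so that β-catenin accumulates and acts with TCF/LEF factors in the nucleus as it does downstream of a Wnt ligand. NPCs are the Six2-expressing cells of the developing kidney that either renew or, on Wnt induction, become epithelium and form nephrons. β-Catenin also ties cadherins to α-catenin at cell contacts, and the α-catenin KO and QCKO cells lack parts of that adhesion complex while keeping β-catenin. The comparison of the knockouts asks whether a response to CHIR needs β-catenin or cell adhesion.

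The identity of the cells and the effect of the *Ctnnb1* guide bear on what follows. Of 8 NPC markers, 6 have an identifier in the tables used here (*Six2*, *Cited1*, *Osr1*, *Eya1*, *Meox2*, *Wt1*), and their summed normalized count in CTRL low CHIR lay between 12877 and 18271. Identifiers were at hand for 4 of 8 ureteric epithelium markers (summed level 279 to 837 in CTRL low CHIR), 1 of 10 stroma markers (*Meis1*, 2143 to 2961), 1 of 8 endothelium markers (*Tek*, 0 to 3.2) and 1 of 8 leukocyte markers (*Cd74*, 240.1 to 362). Identifiers came only from genes that the authors' comparisons had selected for a difference, so markers without a difference tend to be absent. Some of the genes at hand differed between the CHIR conditions too, which their selection favours. The ureteric sum was 841 to 1007 in CTRL high CHIR. It was 382 to 851 in low CHIR against 1199 to 1988 in high CHIR in α-catenin KO (2 of 3 genes tested called higher), and 474 to 664 against 1699 to 1859 in QCKO (1 of 3 called higher, limma). *Tek* reached 89.7 to 177 in CTRL high CHIR and was called higher in both adhesion knockouts. *Meis1* had 749.9 to 1089.8 in CTRL high CHIR and was called lower in QCKO. In β-catenin KO high CHIR *Tek* had 4.62, 85.3 and 46.8, *Meis1* 768, 921 and 537 and the ureteric genes a sum of 537 to 1027, while the NPC sum was 5047 to 10292 there against 1224 to 1921 in CTRL high CHIR. The part of other cell types in the results was not tested. No identifier is paired with *Ctnnb1*, and its own level is not given here. *Ctnna1* had 3564 to 3790 normalized counts over the α-catenin KO libraries and 5817 to 10082 over the CTRL libraries. *Axin2*, a direct target of β-catenin and TCF/LEF, had 39.3, 71.5 and 61.4 normalized counts in CTRL low CHIR, against 357, 435 and 391 in CTRL high CHIR. Its β-catenin KO libraries had 14, 559.7 and 384 in low CHIR, against 18.5, 743 and 687 in high CHIR. The β-catenin KO libraries of replicates 2 and 3 thus lay within or above the *Axin2* range of CTRL high CHIR already in low CHIR, and the replicate 1 libraries lay below every CTRL library. The Wnt inhibitor *Notum* split them the same way, with 1.07, 562 and 325 in β-catenin KO low CHIR against 3.57, 6.5 and 5.29 in CTRL low CHIR. *Wnt4*, the ligand that marks induced NPCs, had 252, 2387 and 1200.4 in β-catenin KO high CHIR against 5286, 4156 and 5401 in CTRL high CHIR. In low CHIR it had 30.1, 831 and 634 in β-catenin KO against 41.1, 72.6 and 72 in CTRL, so replicates 2 and 3 were above CTRL there. The shares kept in β-catenin KO are therefore given by replicate too, and the part of these differences in them was not tested.

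**Figure D1:**
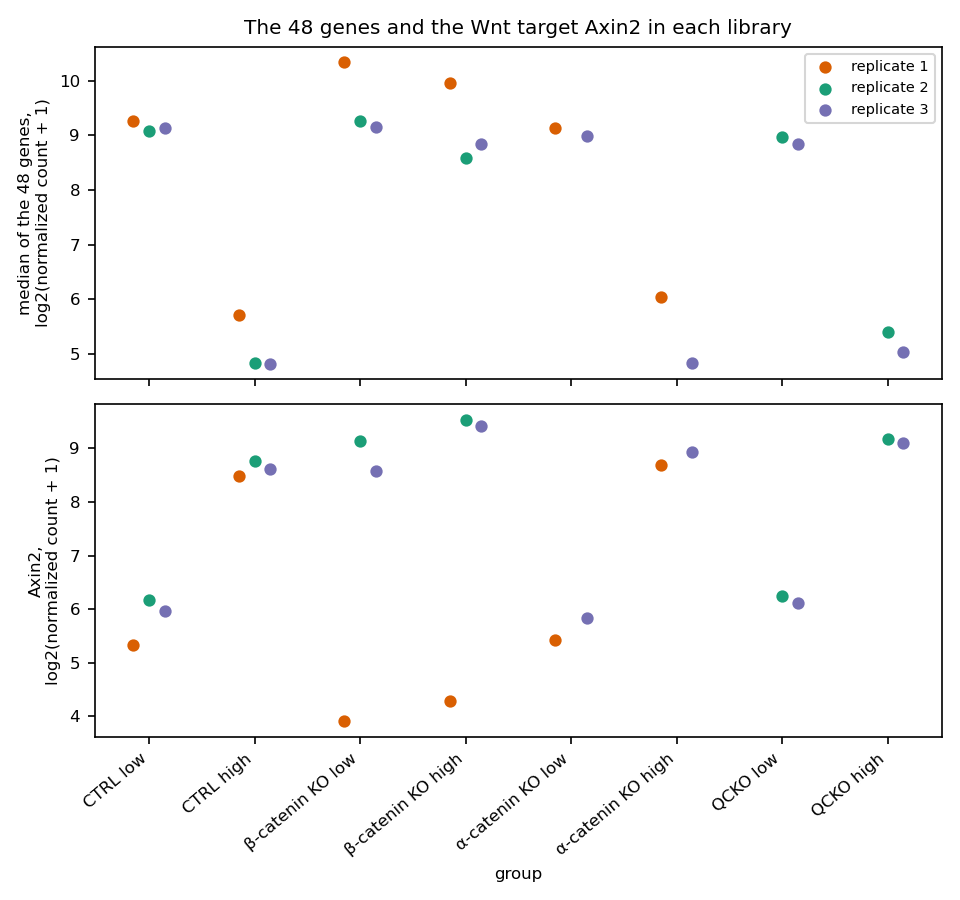
Upper panel, median over the 48 genes of log2(normalized count + 1) in each library, by group and coloured by replicate. Lower panel, *Axin2* on the same scale. The median of the 48 genes lies between 8.58 and 10.34 in all 6 β-catenin KO libraries and between 4.81 and 6.03 in the 7 high CHIR libraries of the other groups, while among the β-catenin KO libraries *Axin2* is low in replicate 1 and high in replicates 2 and 3.

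Across the 48 genes, the median log2(normalized count + 1) was 9.26, 9.08 and 9.14 in CTRL low CHIR and 5.71, 4.82 and 4.81 in CTRL high CHIR. In β-catenin KO it was 10.34, 9.26 and 9.16 in low CHIR, against 9.97, 8.58 and 8.85 in high CHIR. As a share of the CTRL low CHIR mean of each gene, CTRL high CHIR kept a median of 7.22% (range 1.02 to 18.1%), and β-catenin KO high CHIR kept 86% (range 12.8 to 670.4%). The share kept in β-catenin KO was at or above 100% for 20 genes, between 50% and 100% for 17 and under 50% for 11. Without replicate 1 these counts were 11, 25 and 12, and by replicate the share was at or above 100% for 29 genes in replicate 1, 11 in replicate 2 and 7 in replicate 3. By replicate, the median share was 126% in replicate 1, 67.6% in replicate 2 and 68.7% in replicate 3, and it was 69.7% without replicate 1. In replicate 1 β-catenin KO high CHIR was over 1.5 times the mean of replicates 2 and 3 for 33 of the 48 genes, with a median ratio of 2.03, while the median ratio over all genes with a mean of at least 10 was 0.99. In CTRL low CHIR the same ratio had a median of 1.37 over the 48 genes. The 3 β-catenin KO high CHIR libraries overlapped the 3 CTRL low CHIR libraries for 34 genes, lay wholly below them for 13 and wholly above them for 1, *Dkk2*. Over 16691 genes the shares wholly below and wholly above were 7.3% and 9.36%, and since these libraries chose the 48 genes nothing is read from the difference.

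**Figure D2:**
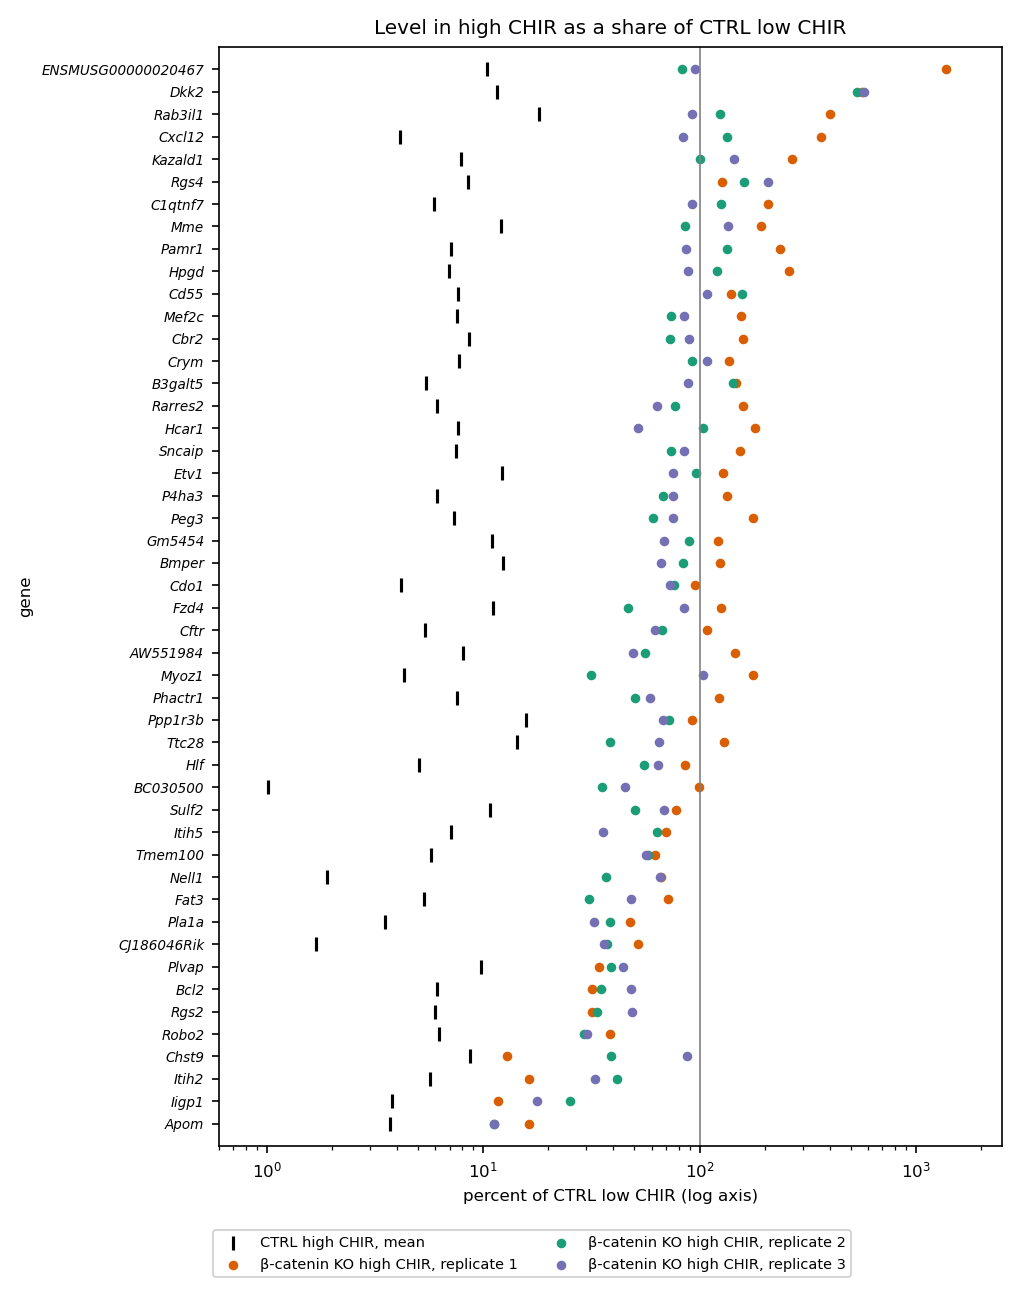
For each of the 48 genes, the level in β-catenin KO high CHIR as a percent of CTRL low CHIR of the same replicate (coloured points), and the mean of CTRL high CHIR as a percent of the mean of CTRL low CHIR (black bars), on a log axis with a grey line at 100%. The replicate 1 points lie to the right for most genes, with a median of 126%, and every black bar lies at or below 18.1%.

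Most of the genes had a lower level in high CHIR in β-catenin KO as well. Of the 48 genes, 32 were lower in high CHIR on each of the 3 dates in β-catenin KO, 4 were higher on each date and 12 were mixed. The share of all genes with the same direction on each date was not counted, so nothing is read from these counts. The median gene in β-catenin KO high CHIR was at 64.8% of its level in β-catenin KO low CHIR. The condition on β-catenin KO high CHIR favours genes with a small difference, so this too is a description. The 14 genes that met both CTRL conditions and missed the β-catenin KO condition, among them *Cited1* and *Tgfbi*, kept between 13.5% and 53.7% of the CTRL low CHIR level, with a median of 32.3%. The thresholds cut a continuous range. *Chst9* lay just inside the level condition (mean of 104 in CTRL low CHIR) and *Adh1* just outside it (95.2). *C1qtnf7* lay just inside the CTRL condition (4.25-fold between the nearest libraries) and *Asb4* outside it (3.93-fold), and for the β-catenin KO condition these were *Chst9* (2.14-fold) and *Adgrf5* (1.92-fold). In a bulk sample, fewer cells of a type and less RNA per cell cannot be told apart.

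**Figure D3:**
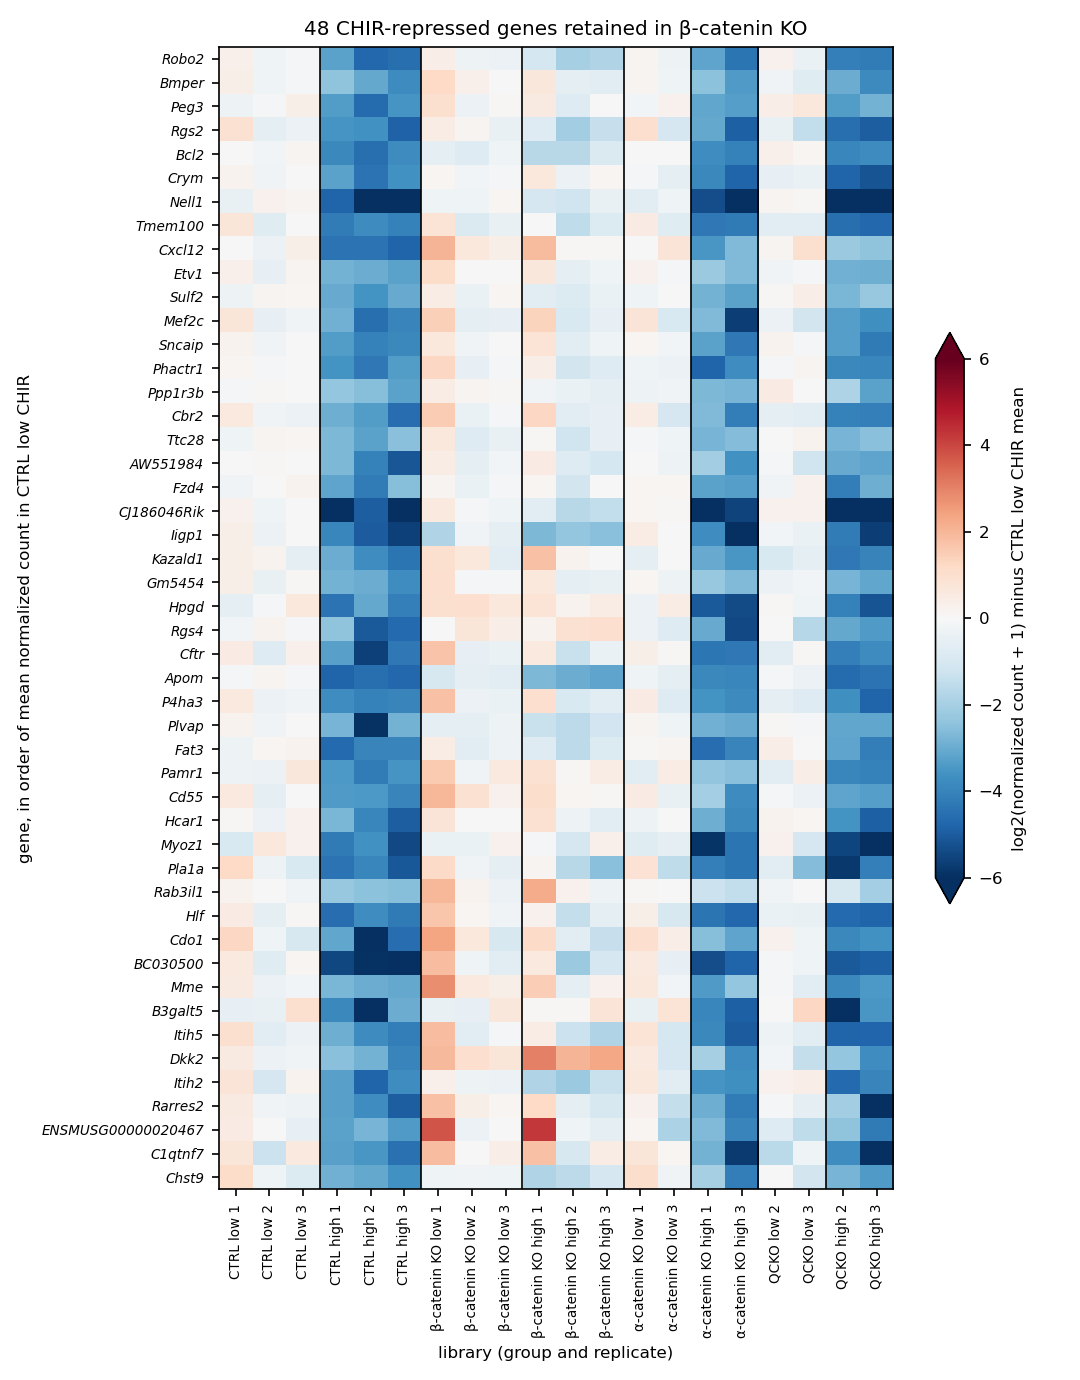
Heatmap of the 48 genes (rows, in order of mean normalized count in CTRL low CHIR) in the 20 libraries (columns, by group and replicate), coloured by log2(normalized count + 1) minus the CTRL low CHIR mean of the gene, with colours that stop at −6 and 6. CTRL, α-catenin KO and QCKO high CHIR columns are blue throughout, and β-catenin KO high CHIR columns stay near or above 0 for most genes, with *Apom*, *Iigp1* and *Itih2* as the bluest rows.

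The list of secreted and matrix genes holds 17 of the 48 genes, including the enzymes of glycan or collagen modification *Chst9*, *B3galt5* and *P4ha3* and the membrane protein *Fat3*, which are not themselves secreted. In β-catenin KO high CHIR the 17 kept a median of 95.6% of the CTRL low CHIR level (124.8, 68.1 and 68.6% by replicate), and their shares ran from 12.8 to 558.5%. *Bmper*, a secreted protein that binds BMPs, had 7266, 4702 and 5414 in CTRL low CHIR, 1052, 678 and 413 in CTRL high CHIR and 9068, 3936 and 3611 in β-catenin KO high CHIR. The last 3 libraries spanned the CTRL low CHIR range, with replicate 1 above it and replicates 2 and 3 below. *Nell1*, a secreted glycoprotein known from bone formation, went from 2062, 3335 and 3113 to 98.7, 26.7 and 35.3 in CTRL, and held 1374, 1230.2 and 2042 in β-catenin KO high CHIR. Its β-catenin KO high CHIR libraries reached 54.6% of CTRL low CHIR (66.6, 36.9 and 65.6% by replicate). *Cxcl12*, the chemokine ligand of Cxcr4, differed from *Nell1* in the share kept, at 190.3%. It had 2089, 1602 and 2594 in CTRL low CHIR, 95.3, 92.9 and 72.1 in CTRL high CHIR and 7635, 2141 and 2182 in β-catenin KO high CHIR, where the share by replicate was 365, 134 and 84.1%. The high mean therefore rests on replicate 1. *Sulf2*, which trims sulfate from heparan sulfate outside the cell, had 1478, 2085 and 1994 in CTRL low CHIR, 222, 152 and 223 in CTRL high CHIR and 1147, 1053 and 1369 in β-catenin KO high CHIR, and all its β-catenin KO high CHIR libraries lay below the CTRL low CHIR ones. *Kazald1*, a secreted protein of the insulin-like growth factor binding protein superfamily, kept 179% (267, 101 and 144% by replicate).

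*Dkk2* and *Apom* mark the ends of this list. *Dkk2* encodes a secreted protein that binds the Wnt co-receptors Lrp5 and Lrp6. It had 198, 106 and 117 normalized counts in CTRL low CHIR, against 22.7, 18.2 and 7.84 in CTRL high CHIR. Its β-catenin KO libraries had 529, 272 and 225 in low CHIR, against 1114, 565 and 677 in high CHIR. Every β-catenin KO library thus lay above every CTRL library, and on each date the high CHIR library of β-catenin KO lay above its low CHIR partner, against the direction in CTRL. Its share of CTRL low CHIR was 562, 532 and 576% by replicate, so that this gene did not depend on replicate 1. *Apom*, the apolipoprotein that carries sphingosine-1-phosphate, had 382, 455 and 394 in CTRL low CHIR, 13.6, 17.1 and 14.9 in CTRL high CHIR, 206, 269.9 and 265 in β-catenin KO low CHIR and 62.4, 51 and 44.2 in β-catenin KO high CHIR. It was lower in high CHIR on all 3 dates in β-catenin KO and kept the lowest share, 12.8%. *Itih2*, a heavy chain of the inter-alpha-trypsin inhibitor that binds hyaluronan, kept 25.8% (16.3, 41.7 and 33% by replicate), and its relative *Itih5* 60.9% (70.3, 63.3 and 35.8%). *Chst9*, a sulfotransferase that acts on N-acetylgalactosamine, kept 30.9% on average, but 12.8, 39.1 and 87.2% by replicate and 58.5% without replicate 1. *Pla1a*, a phospholipase for phosphatidylserine, kept 43.5% (47.9, 38.5 and 32.4% by replicate) and had 7.94, 11.7 and 4.7 normalized counts in CTRL high CHIR. *C1qtnf7*, a secreted protein of the C1q and tumour necrosis factor related family, kept 149.8% (207, 125 and 92.3% by replicate), with 178, 43.3 and 159.8 in CTRL low CHIR and 369, 54.3 and 147 in β-catenin KO high CHIR.

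The promoters of genes that move together with CHIR were searched for the TCF/LEF core, read as CTTTGAT or CTTTGAA on either strand, and for the MEF3 site, bound by Six2 and its relatives, read as TCAGGTTTC on either strand. The words of the TCF/LEF core differ in their last letter, so no stretch counts for both on 1 strand. RefSeq windows from 250 bases before to 50 after a transcript start (GRCm38.p6) were at hand for 33 of the 48 genes, in 52 windows. A TCF/LEF core was found for 3 of the 33 genes, or 9.09%, against 9.88% of all 27025 genes with such windows, and the MEF3 site for 0 of 33, against 0.511% of all genes. The 3 genes were *Cxcl12*, *Rab3il1* and *Kazald1*, a share near that of all genes. A match describes the sequence and says nothing of binding. The 250 bases before the start are shown for these genes because the searched word falls there, with the match in capitals, 5′ to 3′ on the plus strand, on which all 3 genes lie.
Cxcl12 (GRCm38.p6, chr6:117168285-117168534, plus strand): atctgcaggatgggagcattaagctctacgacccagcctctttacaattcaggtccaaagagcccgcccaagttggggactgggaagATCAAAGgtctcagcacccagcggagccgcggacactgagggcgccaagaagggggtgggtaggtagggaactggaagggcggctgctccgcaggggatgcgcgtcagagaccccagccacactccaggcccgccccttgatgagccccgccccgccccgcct
Rab3il1 (GRCm38.p6, chr19:10001419-10001668, plus strand): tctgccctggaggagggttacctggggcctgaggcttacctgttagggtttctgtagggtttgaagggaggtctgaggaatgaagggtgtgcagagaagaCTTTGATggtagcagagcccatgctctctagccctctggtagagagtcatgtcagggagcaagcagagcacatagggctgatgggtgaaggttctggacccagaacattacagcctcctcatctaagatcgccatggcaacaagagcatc
Kazald1 (GRCm38.p6, chr19:45075837-45076086, plus strand): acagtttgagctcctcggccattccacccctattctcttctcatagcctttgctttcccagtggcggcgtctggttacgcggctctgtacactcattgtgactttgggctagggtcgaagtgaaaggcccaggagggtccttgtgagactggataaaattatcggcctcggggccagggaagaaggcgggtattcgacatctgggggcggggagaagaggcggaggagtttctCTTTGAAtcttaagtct

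In the *Cxcl12* window the capitals are the reverse complement of the core, 163 bases before the start. The matches lie 150 bases before the start in the *Rab3il1* window shown and 17 bases before it in *Kazald1*. *Rab3il1* has several start sites in the table, and a second window holds the same match.

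The receptors and signal regulators hold 10 genes, which kept a median of 81.5% in β-catenin KO high CHIR (range 33.2 to 165.6%, medians of 124, 54.0 and 57.8% by replicate). *Robo2*, the receptor for Slit guidance ligands that limits outgrowth of the ureteric bud, had the highest mean normalized count of the 48 genes in CTRL low CHIR (5952), on a count scale that is not corrected for gene length. It had 7266, 4966 and 5624 in CTRL low CHIR, 637, 222 and 251 in CTRL high CHIR and 2787, 1453 and 1696 in β-catenin KO high CHIR. Its β-catenin KO high CHIR libraries lay between both CTRL groups, at 33.2% of low CHIR. *Rgs2* and *Rgs4* encode proteins that speed the shut-off of G protein signals, and they differed in β-catenin KO. *Rgs2* had 7451, 2769.7 and 3118 in CTRL low CHIR, 342, 317 and 139 in CTRL high CHIR and 2369, 929.9 and 1512 in β-catenin KO high CHIR (36.1%). *Rgs4* had 504, 648 and 533 in CTRL low CHIR, 105, 16 and 21.2 in CTRL high CHIR and 641, 1039.6 and 1111 in β-catenin KO high CHIR (166%). The β-catenin KO low CHIR libraries of *Rgs4* had 550.2, 939.6 and 736, so that it was higher in high CHIR on each date. *Tmem100*, a small membrane protein, had 3174, 1188 and 1933 in CTRL low CHIR and kept 59.6% (62.3, 57.6 and 56.5% by replicate). *Phactr1*, a regulator of protein phosphatase 1 and actin, kept 79.1% (122, 50.5 and 59% by replicate), and *Fzd4*, a receptor for Wnt and Norrin, 83.9% (125, 46.8 and 84.5%). *Plvap*, a protein of endothelial fenestrae, had 451, 337 and 394 in CTRL low CHIR and 55.6, 5.34 and 54.1 in CTRL high CHIR. The endothelial receptor *Tek* ran the other way, with 1.79, 3.25 and 0 in CTRL low CHIR and 149, 89.7 and 177 in CTRL high CHIR.

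Of the transcription regulators, 4 genes belong to the set, and they kept between 71.9% and 118% (medians of 142, 67.3 and 75.4% by replicate). *Peg3*, an imprinted zinc finger gene, had 4185, 4913 and 6572 in CTRL low CHIR, 498, 209 and 436 in CTRL high CHIR and 7375, 3005 and 4972 in β-catenin KO high CHIR. Its last 3 libraries overlapped the first 3. *Etv1*, an ETS factor that responds to FGF signals, had 2421, 1380.0 and 2161 in CTRL low CHIR, 273, 248 and 205 in CTRL high CHIR and 3108, 1322 and 1624 in β-catenin KO high CHIR. *Mef2c*, a MADS-box factor, had 2323, 1020.3 and 1209.9 in CTRL low CHIR, 193, 60.9 and 90.9 in CTRL high CHIR and 3609, 749 and 1026 in β-catenin KO high CHIR, and its replicate 1 libraries were the highest in each of these groups. *Hlf*, a bZIP factor of the PAR family, kept 71.9% (85.8, 55.1 and 64% by replicate) and had a ratio of 19.7 between the CTRL means of low and high CHIR.

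The genes for enzymes, metabolism, channels and other cell proteins numbered 12 and kept a median of 85.7% (range 17.2 to 221.9%, medians of 133, 72.8 and 79.1% by replicate). *Crym*, which encodes a protein that binds thyroid hormone and NADPH, had 3625, 2743 and 3241 in CTRL low CHIR, 341, 148 and 254 in CTRL high CHIR and 4979, 2534 and 3507 in β-catenin KO high CHIR (115%). *Bcl2*, the inhibitor of apoptosis, had 3342, 3066 and 3837 in CTRL low CHIR, 231, 147 and 247 in CTRL high CHIR and 1064, 1071 and 1844 in β-catenin KO high CHIR, and kept only 38.8%. *Iigp1*, an interferon-inducible GTPase of a family with close copies whose reads may be shared, had 1149, 702 and 871 in CTRL low CHIR, 59, 26.7 and 17.2 in CTRL high CHIR and 135, 177 and 155 in β-catenin KO high CHIR (17.2%). In β-catenin KO low CHIR it had 255, 768 and 599, with replicate 1 as the lowest, the opposite of most genes here. *Rab3il1*, an exchange factor for Rab GTPases, kept 222% on average and 399.7, 124 and 92.6% by replicate, so its mean too rests on replicate 1. *Sncaip*, which encodes the synuclein-binding protein synphilin-1, kept 108% (154, 73.8 and 85% by replicate), and *Ppp1r3b*, which brings protein phosphatase 1 to glycogen, 77% (92.5, 72.5 and 67.5%). *Cdo1*, the dioxygenase of cysteine breakdown, had 403, 143 and 88.9 in CTRL low CHIR, 19.3, 1.07 and 6.27 in CTRL high CHIR and 386, 109 and 65.1 in β-catenin KO high CHIR, with 95.6, 76 and 73.2% kept by replicate. Its replicate 1 library was the highest in each of these groups. *Myoz1*, a Z-disc protein of muscle, had 112, 333 and 253 in CTRL low CHIR, 10.2, 16 and 3.92 in CTRL high CHIR and 198, 105 and 262 in β-catenin KO high CHIR, with 177, 31.7 and 104% kept by replicate.

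The remaining 5 genes are on none of these lists. *BC030500* had 294, 116 and 212 in CTRL low CHIR and between 1 and 3 reads in each CTRL high CHIR library, too few to give a fold change. *CJ186046Rik* had 1087, 748 and 892 in CTRL low CHIR, 9.07, 27.8 and 9.4 in CTRL high CHIR and 566, 279 and 324 in β-catenin KO high CHIR (42.9%). ENSMUSG00000020467 has no symbol in the tables used here and had the highest mean share, 670.4%. Without a symbol it could not be checked against the names set aside, so its place among the 48 genes, and the upper end of the range of shares, are provisional. That mean comes from replicate 1 of β-catenin KO, with 1733, 96 and 124 in low CHIR, then 2416, 103 and 85 in high CHIR against 175, 125 and 88.9 in CTRL low CHIR. In replicates 2 and 3 the share was 82.7 and 95.6%. The strand setting of the counting is not given in the sources used here, so reads of overlapping genes, which may include these, cannot be assigned with certainty.

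**Figure D4:**
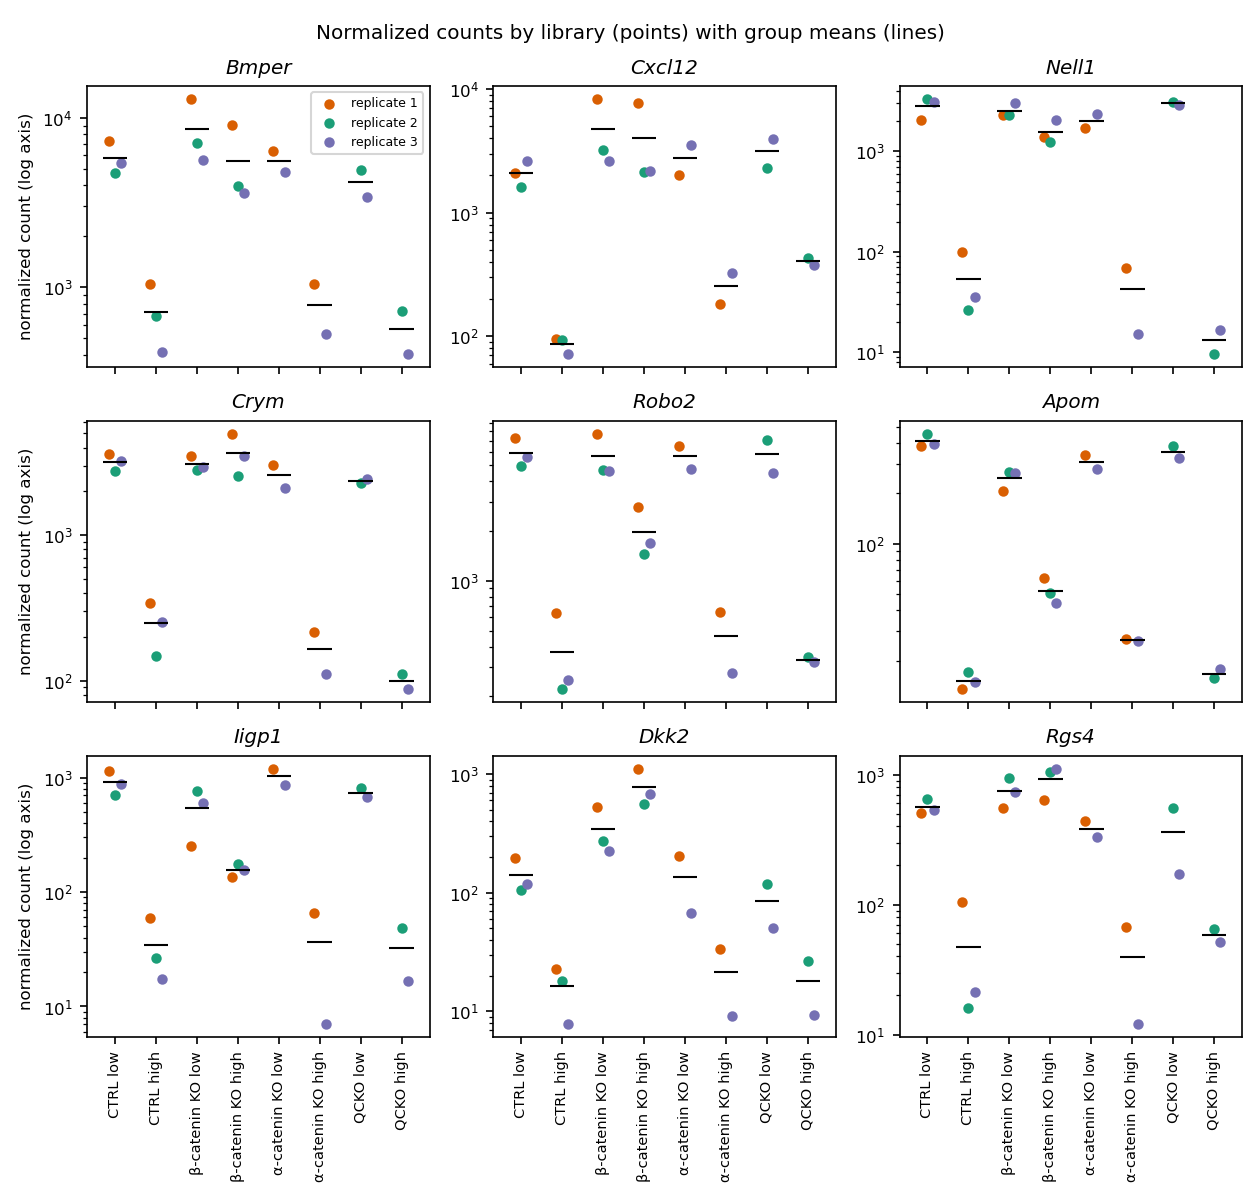
Normalized counts (log axis) of *Bmper*, *Cxcl12*, *Nell1*, *Crym*, *Robo2*, *Apom*, *Iigp1*, *Dkk2* and *Rgs4* in each library (points, coloured by replicate) with the group means (lines). In every panel the high CHIR libraries of CTRL, α-catenin KO and QCKO lie below their low CHIR libraries, while β-catenin KO high CHIR ranges from 12.8% (*Apom*) to 558.5% (*Dkk2*) of the CTRL low CHIR mean.

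The adhesion knockouts tested the response of the 48 genes in libraries that had not been used to choose them. In α-catenin KO, 43 of the 48 genes were lower in high than in low CHIR and 0 were higher (limma on log2(normalized count + 1), called where the adjusted p was under 0.05 and the log2 fold change beyond 0.5 in size). Over all 16516 genes tested, 329 (1.99%) were called lower. In QCKO, 41 of the 48 were lower and 0 higher, against 382 (2.31%) of all genes called lower. The calls were shared for 39 genes and 3 were called in neither knockout. For all 48 genes, both high CHIR libraries lay below both low CHIR libraries in α-catenin KO (23.4% of all genes tested) and in QCKO (28.5%). The median log2 fold change of the 48 genes was −3.56 in α-catenin KO and −3.71 in QCKO, where the medians over all genes were 0.012 and −0.0046. The level in high CHIR was a median of 8.39% of that in low CHIR in α-catenin KO and 7.83% in QCKO, beside 7.22% in CTRL. The libraries of the other groups share their estimate of the spread in this test, and the CTRL libraries among them had been used to choose the genes. With only the libraries compared in the fit, the count was 38 for α-catenin KO and 45 for QCKO, while the calls over all genes in either direction went from 725 to 570 and from 814 to 1855.

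Single genes show the size of this response. In α-catenin KO *Robo2* had 6573 and 4741 in low CHIR, against 648 and 278 in high CHIR. In QCKO it had 7138 and 4497 in low CHIR, against 345 and 323 in high CHIR. The log2 fold change between high and low CHIR was −3.71 in α-catenin KO (standard error 0.48, limma adjusted p = 0.000695) and −4.08 in QCKO (standard error 0.48, limma adjusted p = 0.000277). In α-catenin KO *Nell1* had 1715 and 2326 in low CHIR, against 69.6 and 15.1 in high CHIR. In QCKO it had 3111 and 2918 in low CHIR, against 9.66 and 16.8 in high CHIR. *Nell1* had among the largest changes of the named genes. The log2 fold change between high and low CHIR was −5.89 in α-catenin KO (standard error 0.65, limma adjusted p = 0.000168) and −7.77 in QCKO (standard error 0.65, limma adjusted p = 1.96e-05). In α-catenin KO *Crym* had 3043 and 2120.0 in low CHIR, against 216 and 112 in high CHIR. In QCKO it had 2276 and 2414 in low CHIR, against 111 and 87.9 in high CHIR. The log2 fold change between high and low CHIR was −4.02 in α-catenin KO (standard error 0.38, limma adjusted p = 5.25e-05) and −4.55 in QCKO (standard error 0.38, limma adjusted p = 1.92e-05). In each of these groups the high and low CHIR libraries did not overlap. In α-catenin KO *Cxcl12* had 2029 and 3551 in low CHIR, against 184 and 323 in high CHIR. In QCKO it had 2303 and 3973 in low CHIR, against 433 and 379.7 in high CHIR. *Cxcl12* thus stayed higher in high CHIR in the adhesion knockouts, at 184 or more, than in CTRL, at 95.3 or less, a difference that was not tested because the rule read the CTRL libraries. The log2 fold change between high and low CHIR was −3.46 in α-catenin KO (standard error 0.36, limma adjusted p = 0.000113) and −2.90 in QCKO (standard error 0.36, limma adjusted p = 0.00041). *Rab3il1* had the smallest change of the 48 genes in both knockouts, −1.41 (limma adjusted p = 0.0323) and −1.43 (limma adjusted p = 0.0259). *CJ186046Rik* went from 988 and 947 to 1.29 and 18.2 in α-catenin KO and from 1066 and 1062 to 3.62 and 3.74 in QCKO. Its high CHIR libraries hold 1 and 18 reads in α-catenin KO and 3 and 4 reads in QCKO, too few to rank its change. *Myoz1* had 3 and 1 reads in the QCKO high CHIR libraries, against 295 and 110 reads in QCKO low CHIR, too few for a firm fold change.

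By role, all 12 genes of enzymes, metabolism and channels were called lower in both knockouts. Among the secreted and matrix genes 14 of 17 had a call for α-catenin KO and 13 for QCKO, among receptors and signal regulators 9 of 10 in each, and among transcription regulators 4 of 4 in α-catenin KO and 3 of 4 in QCKO. Some of these calls depended on the libraries in the fit. With all 20 libraries *Rab3il1* and *Cdo1* lost theirs in both knockouts. With only the libraries compared, *Cbr2*, a carbonyl reductase, *Mef2c*, *Rgs4*, *Cd55*, *Pla1a*, *C1qtnf7* and *Chst9* lost theirs in α-catenin KO. In α-catenin KO the genes without a call were *Dkk2* (log2 fold change −2.67, limma adjusted p = 0.0739), *B3galt5*, a galactosyltransferase (−4.57, adjusted p = 0.0769), *Plvap* (−2.90, adjusted p = 0.0536), *Rarres2*, which encodes the chemoattractant chemerin (−2.98, adjusted p = 0.242), and ENSMUSG00000020467 (−2.39, adjusted p = 0.107). With the culture date as a replicate block in limma, calls over all genes in either direction went from 725 to 1186. Under it, 4 of these 5 were called, *Dkk2* (limma adjusted p = 0.00181), *B3galt5* (0.00605), *Plvap* (0.0198) and ENSMUSG00000020467 (0.00965). In QCKO they were *Dkk2* (−2.21, limma adjusted p = 0.149), *Rgs4* (−2.40, adjusted p = 0.173), *Mef2c* (−2.77, adjusted p = 0.0967), *Pla1a* (−3.33, adjusted p = 0.0597), *Chst9* (−2.56, adjusted p = 0.0907), *Rarres2* (−4.19, adjusted p = 0.0671) and ENSMUSG00000020467 (−2.19, adjusted p = 0.139). With the block, calls over all genes went from 814 to 1278, and 6 of these 7 were called. The limma adjusted p was 0.00188 for *Mef2c*, 0.0027 for *Chst9*, 0.00517 for *Dkk2*, 0.012 for *Rarres2*, 0.0144 for ENSMUSG00000020467 and 0.0236 for *Pla1a*, while *Rgs4* stayed at 0.0541. *Dkk2* had 205 and 67 in low CHIR against 33.5 and 9.08 in high CHIR in α-catenin KO. In QCKO it had 119 and 50.1 in low CHIR against 26.6 and 9.35 in high CHIR, so it was lower in high CHIR on each date in both.

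**Figure D5:**
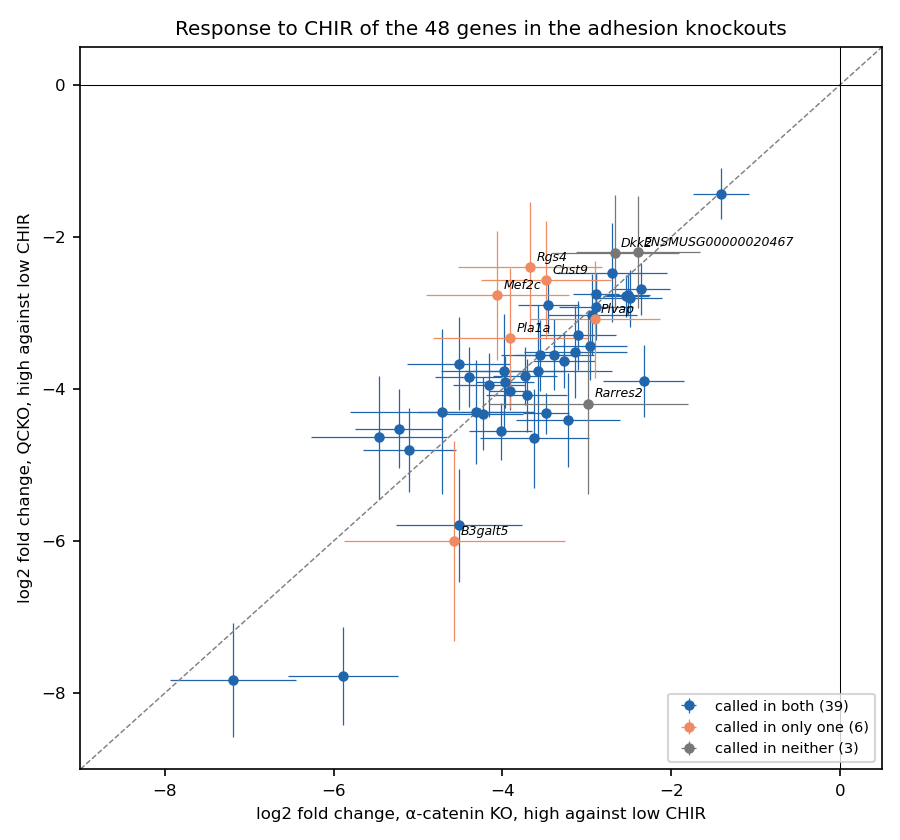
Log2 fold change between high and low CHIR of the 48 genes in α-catenin KO (x axis) and QCKO (y axis), with standard errors from limma as bars, coloured by whether a gene was called in both (39), in only one (6) or in neither (3). All points lie below 0 on both axes with *Rab3il1* at the upper right. The dashed line marks equal change, and genes such as *Nell1* (−5.89 and −7.77) and *Pamr1* (−2.33 and −3.89) lie off it.

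No gene of the set was found to differ between the α-catenin KO and QCKO cells. In high CHIR, 0 of the 48 genes differed between them by limma at an adjusted p under 0.05, where 0 of 16516 genes (0.0%) were called, 123 of all genes and 2 of the 48 had an unadjusted p under 0.05, and edgeR and DESeq2 on the recovered reads also called 0 of the 48. The 2 genes were *Pamr1*, a secreted protein with a peptidase-like domain (1.57, standard error 0.48, limma adjusted p = 1.0), and *Apom* (0.64, standard error 0.27, limma adjusted p = 1.0). *Pamr1* had 63.1 and 57.5 in α-catenin KO high CHIR and 20.5 and 18.7 in QCKO high CHIR, and these libraries did not overlap. The difference between the responses to CHIR, tested as an interaction in limma, was called for 0 of the 48 genes, with 2 at an unadjusted p under 0.05, against 0 and 83 of all 16516 genes. Across the 48 genes the log2 fold changes of both knockouts had a Pearson r of 0.825, beside 0.87 over all genes tested, where genes are not independent replicates and the groups share a culture date. With 2 libraries a group, a modest difference could be missed, and the size that could be detected was not worked out.

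In low CHIR, β-catenin KO was compared with the mean of α-catenin KO and QCKO, because CTRL low CHIR had been used in the choice. By limma, 0 of the 48 genes were called in either direction, against 24 of 16691 genes (0.144%). This fit held all 20 libraries, so libraries used to choose the genes entered its estimate of the spread. With only the groups compared, 0 of the 48 and 0 of all genes were called. An unadjusted p under 0.05 was found for 6 of the 48 and for 1731 of all genes. The median log2 difference of the 48 genes was 0.335 (34 of 48 above 0), beside −0.0042 over all genes, whose share above 0 was not counted. For the 48 genes the median was 0.0064 without replicate 1 of β-catenin KO low CHIR. edgeR called 0 of the 48 (104 of all genes) and DESeq2 called 1 (361 of all genes). That gene was *Dkk2*, with 529, 272 and 225 in β-catenin KO, 205 and 67 in α-catenin KO and 119 and 50.1 in QCKO low CHIR. Every β-catenin KO library lay above every adhesion knockout library, and the log2 difference was 1.73 (standard error 0.54, limma adjusted p = 0.267). With the culture date as a replicate block in limma, which called 157 of all genes, the adjusted p was 0.0192. In DESeq2 it was 0.0407, and over the alternatives it ran from 0.0192 to 0.695. The other 5 genes were *Cd55*, an inhibitor of complement (1.15), *Mme*, which encodes the peptidase neprilysin (1.31), *Hpgd*, which breaks down prostaglandins (0.90), *Bcl2* (−0.64) and *Apom* (−0.42), with limma adjusted p between 0.295 and 0.466.

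Among the lists of NPC and induction genes, 11 of 20 progenitor genes and 12 of 14 induction genes have an identifier. Of the progenitor genes, which include the set members *Crym*, *Tmem100* and *Bmper*, 10 of 11 were called lower in high CHIR in each adhesion knockout, and *Pax2* was called higher in α-catenin KO. All 12 induction genes were called higher in both knockouts. Over all 16516 genes, 396 were called higher and 329 lower in α-catenin KO, and 432 higher and 382 lower in QCKO. The authors' comparisons, which gave the identifiers, had selected genes for a difference. That favours such counts, so nothing is read from them. In β-catenin KO high CHIR, *Six2* had 798, 409 and 468 normalized counts against 1539.6, 1642 and 943 in CTRL low CHIR and 69.2, 64.1 and 83.8 in CTRL high CHIR. The self-renewal gene *Osr1* had 1686, 624 and 680.0 in β-catenin KO high CHIR, 1129.9, 1276 and 1187 in CTRL low CHIR and 61.2, 27.8 and 55.6 in CTRL high CHIR. Both met the same conditions as the 48 genes and had been set aside by name. The high levels of the 48 genes in replicates 2 and 3 of β-catenin KO thus stood beside *Axin2* levels of 743 and 687 in high CHIR, and those in replicate 1 beside 18.5.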

How the data were processed

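RNA from sorted mCherry+ NPCs was amplified (SMARTer Ultra Low) and sequenced as paired-end reads. The submitters' processing notes name bcl2fastq, STAR, Subread, featureCounts, Salmon and DESeq2, and the builds GRCm38, mm10 and GRCh38, without roles. The deposited signal values hold read counts after division by a size factor of each library, done by the authors. All came out whole within 0.1 read, so reads were recovered (18124772 to 28472412 per library, median 21449823). The check is weak in 2 libraries whose factor is near 1 (replicate 2 of β-catenin KO, low CHIR, and replicate 3 of α-catenin KO, high CHIR). Intervals and floors cover counting error only. The authors' comparison tables list their own fold changes and p-values, which were not used. They pair 4316 identifiers with a symbol, and these genes were selected there for a difference. Of the 48 genes, 47 have a symbol and 45 an Entrez identifier, which matched RefSeq windows for 33.

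Values were analysed as log2(normalized count + 1) with limma 3.58.1 in R 4.3.3 (mean-variance trend, genes with a mean of at least 10, Benjamini-Hochberg over all genes tested). All 48 genes passed the filter. Contrasts of α-catenin KO and QCKO used the 14 libraries without β-catenin KO, and the low CHIR contrast all 20. The added 1 makes the fold changes of low genes too small. The fit was also run on simulated counts, with changes set only in genes with a mean of at least 100. Its outcome is not given here, so nothing about the fit is read from it. Replicate numbers stand for culture dates given in the labels, which pair the libraries (correlation over genes of paired deviations 0.0474 to 0.721). The study calls the libraries biological replicates.

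The genes, the lists and the tests were chosen with earlier results of these data known. Genes named are the 10 highest in CTRL low CHIR, the 10 with the largest CTRL ratio, the 6 highest and 6 lowest in share kept, those nearest each threshold and up to 4 per role list. Others were named after their values were seen. Alternatives were pseudocounts of 0.25 and 5, no filter, a mean of at least 100, quantile normalization, other sets of libraries, the culture date as a block, a log2 fold change over 1, edgeR 4.0.16 and DESeq2 1.42.0 on the recovered reads, and the omission of single libraries. For the choice of genes, reads per library total and TMM were also used.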

Additional observations from a re-analysis of the deposited data

Results flagged for a closer look

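For 4 genes the level was higher in high CHIR on all 3 dates in β-catenin KO and lower on all 3 dates in CTRL. The direction in CTRL was set by the choice of the genes. The share of all genes that were higher on all 3 dates in β-catenin KO was not counted. The difference between the groups was not tested, because these libraries had been used to choose the genes, so no opposite response is concluded. The log2 change in β-catenin KO was 1.24 for *Dkk2*, 0.385 for *B3galt5*, 0.32 for *Rgs4* and 0.114 for *Rab3il1*. *Dkk2* went from 529, 272 and 225 to 1114, 565 and 677, and *Rgs4* from 550.2, 939.6 and 736 to 641, 1039.6 and 1111. *B3galt5* went from 106, 105 and 239 to 152, 153 and 257, and *Rab3il1* from 894, 264 and 174 to 1052, 273 and 181, where the changes in replicates 2 and 3 were small.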

How the results depend on the processing

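The number of genes that meet the conditions depended on the libraries read, from 62 to 86 when a replicate was left out (86 without replicate 1, of which 45 are among the 48, 75 without replicate 2 and 62 without replicate 3, which both hold all 48), and was 53 with reads per library total and 49 with TMM. Counts of the 48 genes called lower ranged from 29 to 48 in α-catenin KO and from 33 to 47 in QCKO over the alternatives. Leaving out a library gave 29 to 39 and 33 to 37, with 29 without α-catenin KO high CHIR replicate 3, and over all genes 281 to 496 and 368 to 399 calls in either direction, against 725 and 814. A mean of at least 100 gave 35 and 34, with fewer genes tested. With the culture date as a replicate block 47 were called in each, and 1186 and 1278 of all genes. The median log2 fold change was −3.38 (α-catenin KO) and −3.45 (QCKO) with a pseudocount of 5, and −3.87 to −3.22 and −3.78 to −3.56 when a library was left out. In low CHIR, β-catenin KO against the adhesion knockouts gave 1 call with the replicate block and 1 with DESeq2, where all genes gave 157 and 361 calls against 24, and the median lay between 0.006 and 0.595 when a library was left out. The alternative with only the groups compared was chosen after seeing the data for the α-catenin KO and QCKO contrasts, as was giving the shares kept without replicate 1. Each of the 48 genes stayed below 0 in the α-catenin KO and QCKO responses under every alternative in which it was tested. Over the values of the 31 genes named by the rule in these 2 responses, 841 kept their call or lack of one, 53 lost a call and 20 gained one.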

Other observations

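The 14 genes that met both CTRL conditions and missed the β-catenin KO condition were all called lower in high CHIR in α-catenin KO and likewise in QCKO (limma), with median log2 fold changes of −3.50 and −3.72. The 12 genes set aside by name kept between 6.91% (*Il33*, a cytokine of the interleukin-1 family) and 192.7% (*Slc40a1*, the iron exporter ferroportin) of the CTRL low CHIR level in β-catenin KO high CHIR, with a median of 56.4%.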
